A study of Mus musculus with 36 samples.

Results

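The oxidized phospholipid PGPC was added to the bacterial product LPS in cDC2, the kind of conventional dendritic cell that is specialised in presenting antigen to CD4+ T cells, and the effect on messenger RNA was measured across all genes. The comparison took every library that the labels place in either group, which gave 6 of the 36 libraries of the series: LPS+PGPC replicates 4, 5 and 6 against LPS replicates 4, 5 and 6. The cells came from mouse bone marrow and are labelled FLT3L cDC2. Groups set beside these were cDC2 given PGPC alone (replicates 4 and 5) and untreated cDC2 (replicates 4, 5 and 6), and cDC1, the other conventional dendritic cell, given LPS+PGPC or LPS (replicates 1, 2 and 3 each). All groups used here share the bone marrow source and the FLT3L label (FLT3 ligand is the growth factor that drives dendritic cell development), and the labels name no allele, strain or age. The labels do not state doses, times, how the cells were sorted or whether marrow of several mice was pooled. The series calls the replicates biological, and nothing says which animals or cultures they came from, so p-values measure the spread between libraries. For edgeR, that spread was estimated over 23 libraries in 8 groups, which also included untreated cDC1 and cDC1 given PGPC alone. Values per library are in the order of replicates 4, 5 and 6 throughout and are CPM, read counts scaled to a common library total.

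PGPC (palmitoyl-glutaryl-phosphocholine) is a short-chain fragment of an oxidized membrane phospholipid that forms where cells are damaged. LPS is sensed through CD14, TLR4 and MD-2, which switch on NF-kB and interferon genes, among them the pro-form of interleukin-1 beta and the inflammasome sensor NLRP3. In dendritic cells primed with LPS, PGPC is known for a state called hyperactive, in which inflammasomes act and interleukin-1 beta is released while the cells stay alive. The series is about that state, and this comparison asks which transcripts differ when PGPC joins LPS.

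A gene was called when its adjusted p was under 0.05 in edgeR's quasi-likelihood test with Benjamini-Hochberg adjustment over 12463 genes, and "rose" and "fell" are used of called genes alone. With PGPC added to LPS, 48 genes were called (0.385% of genes tested), of which 35 rose (0.281%) and 13 fell (0.104%). Those that rose included the transcription factor gene Klf2, the glucocorticoid-inducible gene Tsc22d3, the coreceptor gene Nrp1, the lipid droplet gene Plin2, the lipase gene Lpl and enzymes of cholesterol synthesis. Those that fell included Nlrp3, the mitochondrial superoxide dismutase gene Sod2 and the integrin gene Itgal. The transcripts of the interleukin-1 cytokines, Il6, Tnf, Cd40 and the caspase and pore genes of pyroptosis did not pass the test in either direction.

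The start regions of 4 called genes are shown, each with a short motif of a kind that transcription factors are known to read. Whether any factor acts at these places was not tested. Each region is 280 bases of RefSeq sequence (build GRCm38.p6) on the strand of the gene, 250 before the start and 30 after it, with the searched motif in capitals. For Klf2 (chr8:72318812-72319091) the capitals mark CTA and TAG parted by any 4 letters, the core read by MEF2 factors, which are known activators of Klf2. For Trib3 (chr2:152344031-152344310) they mark TGATGNAA as its reverse complement, the joint element of ATF4 and C/EBP factors. For Plin2 (chr4:86670030-86670309) they mark CACGTG, the E-box read by factors such as USF and TFE3. For Nlrp3 (chr11:59541319-59541598) they mark GGGA and CC parted by any 4 letters, a core read by NF-kB.
Klf2: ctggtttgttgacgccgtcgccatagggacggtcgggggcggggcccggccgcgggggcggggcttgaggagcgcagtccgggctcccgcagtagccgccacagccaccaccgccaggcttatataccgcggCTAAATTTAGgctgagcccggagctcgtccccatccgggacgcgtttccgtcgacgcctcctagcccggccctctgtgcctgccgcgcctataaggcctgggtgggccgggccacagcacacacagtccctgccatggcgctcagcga
Trib3: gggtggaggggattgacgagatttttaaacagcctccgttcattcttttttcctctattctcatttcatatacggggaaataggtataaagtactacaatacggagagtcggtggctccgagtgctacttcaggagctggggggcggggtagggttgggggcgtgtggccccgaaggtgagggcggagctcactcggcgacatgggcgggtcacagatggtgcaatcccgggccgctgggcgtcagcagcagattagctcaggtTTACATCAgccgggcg
Plin2: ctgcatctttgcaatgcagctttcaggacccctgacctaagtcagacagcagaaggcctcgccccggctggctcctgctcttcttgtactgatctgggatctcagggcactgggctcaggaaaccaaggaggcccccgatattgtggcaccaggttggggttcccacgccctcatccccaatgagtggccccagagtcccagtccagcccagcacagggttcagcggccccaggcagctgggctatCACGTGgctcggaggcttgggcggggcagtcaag
Nlrp3: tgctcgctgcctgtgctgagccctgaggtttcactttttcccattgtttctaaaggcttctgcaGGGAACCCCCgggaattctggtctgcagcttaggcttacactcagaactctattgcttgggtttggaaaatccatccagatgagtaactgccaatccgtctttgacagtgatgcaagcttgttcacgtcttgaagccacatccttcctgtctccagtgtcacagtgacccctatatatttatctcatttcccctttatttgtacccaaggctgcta

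The MEF2 letters began 118 bases before the Klf2 start, the E-box 4 bases before that of Plin2 and the NF-kB letters 186 bases before that of Nlrp3, while the letters in Trib3 began 14 bases after the start. The Nlrp3 window also held TGATGNAA, and a second listed Nlrp3 start held no NF-kB letters. Both strands were searched in windows of 250 bases before to 50 after the start, which 39 of the 48 called genes had. The MEF2 letters stood in 3 of 29 genes that rose and 0 of 10 that fell, against 3.69% of 32851 windows of all genes. The E-box stood in 5 of 29 that rose and 0 of 10 that fell, against 7.15% of windows. NF-kB letters stood in 9 of 29 that rose and 4 of 10 that fell, against 20.7% of windows, and TGATGNAA in 1 of 29 and 2 of 10, against 3.97%. A gene may have several windows, so a share of genes is not like a share of windows. Counted by window, the MEF2 letters stood in 3 of 44 of genes that rose and 0 of 17 of genes that fell. For the E-box it was 5 of 44 and 0 of 17, for NF-kB letters 12 of 44 and 5 of 17, and for TGATGNAA 1 of 44 and 2 of 17. The motifs were chosen after the values had been seen, and a match is only a match of letters.

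Total counts were 8283434, 2959343 and 3982392 in LPS+PGPC libraries, against 1892082, 1883603 and 980502 in LPS libraries. Every LPS+PGPC library was thus deeper than every LPS library (exact two-sided permutation test, p = 0.1, the smallest that 3 libraries against 3 allow). At the depth of the LPS libraries, 3 counts stand for 1.53, 1.61 and 2.93 CPM, so low genes are less well measured there. In cDC2 given PGPC alone, 3 counts stand for 1.64 and 5.16 CPM in replicates 4 and 5, which limits low values there too. After the 6 libraries were thinned to the smallest total, 41 genes were called, and 36 of them were among the 48. Counts on the ribosomal RNA locus made up 27.8% ± 5.27 in LPS+PGPC libraries and 23.2% ± 2.72 in LPS libraries (SD, n = 3 each; exact permutation test, p = 0.2). Mitochondrial transcripts took 0.172% ± 0.0964 of counts in LPS+PGPC and 0.166% ± 0.11 in LPS libraries (SD, n = 3 each; exact permutation test, p = 1).

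The defining cDC2 marker Sirpa, an inhibitory receptor, measured 1772, 761 and 647 CPM in LPS+PGPC libraries, against 3916, 980 and 1439 CPM in LPS libraries. The 2 receptors that define cDC1 were at or near 0 in these libraries: Clec9a had 0, 0 and 0.227 CPM with LPS+PGPC and no count with LPS, and Xcr1 had 4.6, 2.13 and 0 CPM with LPS+PGPC against 3.07, 3.23 and 0 CPM with LPS. Cd209a, often used as a cDC2 marker, had no count in any of the 6 libraries, and Irf4, a cDC2 transcription factor, had 3.71, 7.32 and 4.78 CPM with LPS+PGPC against 2.04, 6.99 and 4.88 CPM with LPS. In cDC1 given LPS+PGPC and LPS, Sirpa averaged 444 and 747 CPM and Clec9a 3.6 and 9.83 CPM. Xcr1 averaged 0.897 and 13.3 CPM there, and Irf4 24.3 and 7.8 CPM. With LPS+PGPC, Xcr1 was thus no higher in cDC1 and Irf4 no lower there, so neither marked out the cell type. The 16 tested cDC1 markers, several of which other dendritic cells also express, summed to 394 to 427 CPM in LPS+PGPC libraries and 387 to 473 CPM in LPS libraries. None of these and none of 14 tested cDC2 markers was called in either direction. The maturation marker Ccr7, the receptor that guides dendritic cells to lymph nodes, had 4640, 1831 and 1316 CPM with LPS+PGPC, 4487, 1467 and 1005 CPM with LPS, and 151, 149 and 116 CPM in untreated cDC2. Both LPS groups therefore carried Ccr7 above the untreated libraries, and the LPS+PGPC and LPS libraries overlapped. In such bulk samples, fewer cells of a type and less RNA per cell cannot be told apart.

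**Figure D1:**
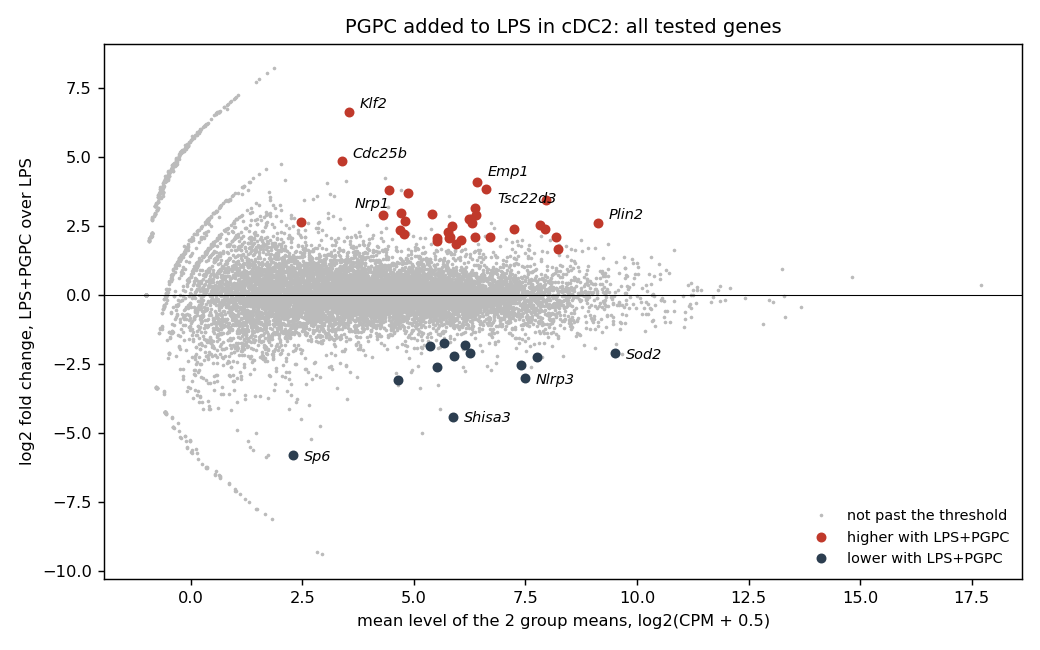
Each point is 1 of the 12463 tested genes in cDC2, with the mean of its 2 group levels on the horizontal axis (log2 of CPM + 0.5) and the log2 fold change of LPS+PGPC over LPS on the vertical axis; called genes are coloured by direction and some are named. The 35 genes that rose and the 13 that fell are drawn against all genes, whose median log2 fold change is 0.01, and the grey points with the widest fold changes are genes of few counts.

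The called genes had no overlap between their LPS+PGPC and LPS libraries in 48 of 48 cases. Over all tested genes, libraries lay wholly apart with LPS+PGPC higher for 1059 (8.5%) and with LPS+PGPC lower for 672 (5.39%). At an unadjusted p under 0.05 (edgeR), 546 of the 12463 genes were higher and 458 lower. The unadjusted counts given for lists below are to be read against these. With another scaling (RLE size factors in the same test) 32 genes rose and 20 fell, in place of 35 and 13. DESeq2 called 193 genes, 109 higher and 84 lower, which included all 48. Leaving out 1 library left between 19 and 83 calls: 83 without LPS replicate 4, 27 without LPS replicate 5, 19 without LPS replicate 6, 26 without LPS+PGPC replicate 4, 19 without LPS+PGPC replicate 5 and 41 without LPS+PGPC replicate 6. A fit to the 6 libraries alone called 13 genes, of which 9 were among the 48, and a fit that also held the alum libraries called 2, both among the 48. The direction of each of the 48 was the same in all 14 alternatives. With libraries wholly apart, leaving 1 out could hardly turn a direction, and the other alternatives used the same counts, so this adds little.

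Among transcription factors and regulators of signalling, Klf2 and Tsc22d3 rose. Klf2 (chr8:72319033-72321656, + strand) encodes a zinc finger factor known to keep lymphocytes quiescent and to restrain NF-kB targets in myeloid cells. It had 25.1, 22.9 and 18.7 CPM in LPS+PGPC libraries, against 0.511, 0 and 0 CPM in LPS libraries. All LPS+PGPC libraries held the transcript, while the LPS libraries together held 1 count against 326. The ratio of counts per scaled total was 109, with a 95% counting interval of 19.5 to 4336, and the adjusted p was 0.00437 (edgeR). Untreated cDC2 had 1.34, 2.58 and 0 CPM and cDC2 given PGPC alone 1.64 and 0 CPM, so the transcript was near 0 in the other cDC2 groups as well. Klf2 was the only one of the 48 that was called in all 14 alternatives (highest adjusted p = 0.0494, edgeR or DESeq2).

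Tsc22d3 (chrX:140539528-140600659, - strand) encodes GILZ, a leucine zipper protein induced by glucocorticoids that binds NF-kB and AP-1 subunits. Its level was 218, 187 and 147 CPM in LPS+PGPC libraries, against 17.4, 14.5 and 5.86 CPM in LPS libraries. The lowest LPS+PGPC library exceeded the highest LPS library many times over. The log2 fold change was 3.83 ± 0.41 (SE; adjusted p = 1.35e-05, edgeR), the smallest adjusted p of the comparison. PGPC alone gave 49.2 and 72.3 CPM, against 19.5, 28.9 and 18.7 CPM without treatment, which did not pass the test (log2 fold change 1.38 ± 0.42, adjusted p = 0.708, edgeR).

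The other Krüppel-like factors of the immediate early list did not pass the test. Klf6 had 375, 573 and 550 CPM with LPS+PGPC against 162, 222 and 186 CPM with LPS (log2 fold change 1.40 ± 0.37, adjusted p = 0.103, edgeR), and DESeq2 called it. Klf4 had 14.1, 13.1 and 10.5 CPM against 3.07, 3.23 and 1.95 CPM with LPS (2.15 ± 0.75, adjusted p = 0.317, edgeR). Of the 31 tested AP-1 and immediate early genes, Klf2 alone rose and 0 fell in edgeR (0.281% and 0.104% over all genes). The list's median log2 fold change was 0.44, against 0.01 over all genes.

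**Figure D2:**
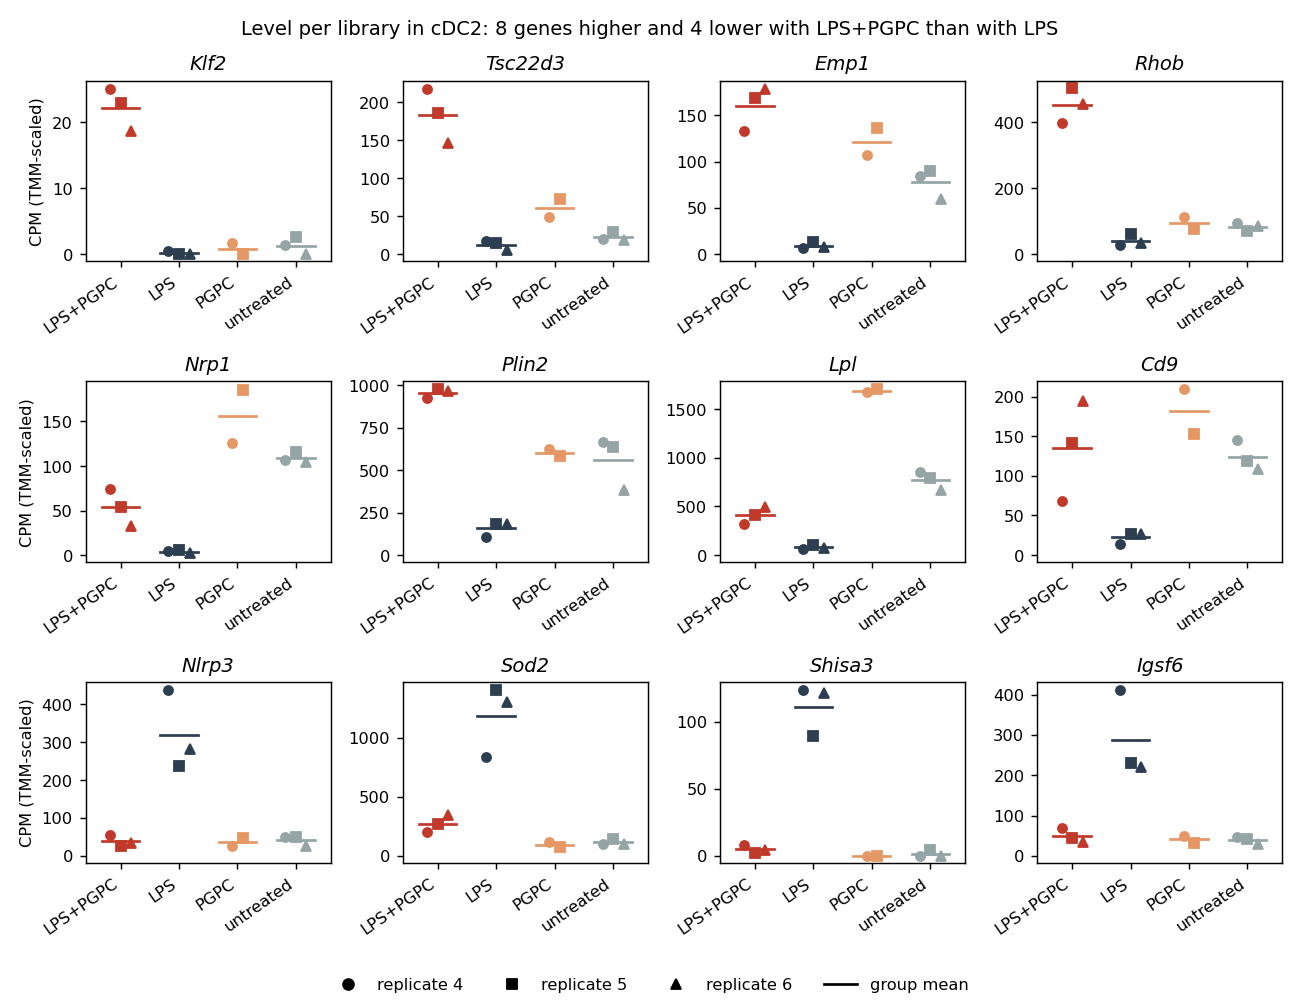
Level of 12 called genes in each cDC2 library (CPM, linear axis per gene), with 1 point per library and a bar at the group mean; groups run from LPS+PGPC and LPS to PGPC alone and untreated. The LPS+PGPC points of Klf2, Tsc22d3, Emp1, Rhob, Nrp1, Plin2, Lpl and Cd9 all lie above the LPS points, and those of Nlrp3, Sod2, Shisa3 and Igsf6 all lie below them.

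Several other genes that rose encode receptors and membrane proteins, put together here by known role and not from a list. Nrp1 (chr8:128358604-128503363, + strand) encodes neuropilin-1, a coreceptor for semaphorins and VEGF. It measured 74.2, 54.3 and 32.8 CPM in LPS+PGPC libraries, against 4.6, 5.38 and 1.95 CPM in LPS libraries. The groups lay wholly apart, at a log2 fold change of 3.68 ± 0.45 (SE; adjusted p = 9.9e-05, edgeR). Untreated cDC2 had 106, 116 and 104 CPM and PGPC alone 126 and 186 CPM, so the LPS group was the lowest of the 4 cDC2 groups and LPS+PGPC lay between it and the untreated libraries.

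Emp1, a tetraspan membrane protein gene, had 133, 169 and 179 CPM with LPS+PGPC against 6.64, 13.4 and 7.81 CPM with LPS (log2 fold change 4.09 ± 0.59, adjusted p = 0.000826, edgeR). The tetraspanin gene Cd9 had 68.8, 141 and 195 CPM with LPS+PGPC against 13.8, 26.9 and 26.4 CPM with LPS (2.60 ± 0.47, adjusted p = 0.00689). Both were also well above the LPS level in untreated cells, with 84.5, 89.4 and 59.7 CPM for Emp1 and 145, 119 and 108 CPM for Cd9. C5ar1, the receptor for the complement fragment C5a, had 203, 134 and 108 CPM with LPS+PGPC against 25.6, 14 and 20.5 CPM with LPS (2.89 ± 0.43, adjusted p = 0.00126). Clec7a, which encodes the beta-glucan receptor Dectin-1, had 33.8, 48.2 and 44.4 CPM with LPS+PGPC against 7.15, 7.53 and 10.7 CPM with LPS (2.33 ± 0.42, adjusted p = 0.00689). Plaur, the urokinase receptor gene, had 112, 101 and 80.8 CPM with LPS+PGPC against 14.3, 23.1 and 14.6 CPM with LPS (2.49 ± 0.53, adjusted p = 0.0318). Every LPS+PGPC library lay above every LPS library for each of these, and the gap was narrower for Cd9 (68.8 against 26.9 CPM) than for Emp1 (133 against 13.4 CPM). Pmp22, a relative of Emp1, had 76.6, 147 and 179 CPM with LPS+PGPC against 29.1, 38.7 and 26.4 CPM with LPS (2.09 ± 0.41, adjusted p = 0.0138).

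Within the migration list of 26 tested genes, 1 rose and 1 fell (0.281% and 0.104% over all genes), and the median log2 fold change was 0.23 (0.04 without LPS+PGPC replicate 4 and 0.66 without LPS replicate 4). Ccr1, a receptor for inflammatory CC chemokines, rose, with 111, 92.1 and 63.2 CPM in LPS+PGPC libraries against 11.8, 24.7 and 18.6 CPM in LPS libraries (log2 fold change 2.27 ± 0.51, adjusted p = 0.0422, edgeR). Itgal, the alpha chain of the adhesion integrin LFA-1, fell, with 69.1, 53.7 and 104 CPM in LPS+PGPC libraries against 227, 447 and 395 CPM in LPS libraries (-2.24 ± 0.42, adjusted p = 0.00995). All LPS+PGPC libraries lay on one side of the LPS libraries for both genes, and untreated cDC2 had 19.5, 20.4 and 18.7 CPM of Ccr1 and 69, 107 and 56 CPM of Itgal. The integrin chain gene Itgb7, the sheddase gene Adam8 and the monocyte chemokine receptor gene Ccr2 did not pass edgeR's test but were called higher by DESeq2. Itgb7 had 1182, 489 and 375 CPM with LPS+PGPC against 366, 89.3 and 60.5 CPM with LPS, and Adam8 had 1402, 930 and 744 CPM against 428, 207 and 228 CPM with LPS.

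Called genes outside the lists included some known from the cytoskeleton, in both directions. Rhob, a small GTPase of endosomes and actin, had 398, 503 and 456 CPM in LPS+PGPC libraries against 28.6, 60.8 and 35.2 CPM in LPS libraries (log2 fold change 3.44 ± 0.53, adjusted p = 0.00157, edgeR), with 96.2, 70.6 and 85.8 CPM in untreated cells. The membrane-bending actin regulator gene Mtss1 had 160, 106 and 139 CPM with LPS+PGPC against 23, 19.9 and 16.6 CPM with LPS (2.76 ± 0.45, adjusted p = 0.00237). Eps8, which caps actin filaments, had 43.2, 34.8 and 24.6 CPM with LPS+PGPC against 5.11, 5.38 and 2.93 CPM with LPS (2.89 ± 0.65, adjusted p = 0.0426). Vasp, which drives actin filament growth, fell, with 25.7, 19.8 and 17.5 CPM in LPS+PGPC libraries against 72.1, 112 and 110 CPM in LPS libraries (-2.22 ± 0.47, adjusted p = 0.0321). Spata13, an exchange factor for Rac and Cdc42, fell as well, with 6.53, 0.915 and 7.73 CPM in LPS+PGPC libraries against 64.4, 28 and 40 CPM in LPS libraries (-3.09 ± 0.57, adjusted p = 0.00827). Tuba1a, an alpha tubulin gene, rose (2.08 ± 0.42, adjusted p = 0.0178), and its reads may be split with near-identical tubulin genes.

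A further 14 genes that rose had other or mixed roles, and some of these also encode membrane proteins. Cdc25b, a phosphatase that releases cyclin-dependent kinases, had 11.1, 18.6 and 27.8 CPM in LPS+PGPC libraries against 0.511, 0 and 1.95 CPM in LPS libraries, or 258 counts against 3. The ratio was 28.9, with a 95% counting interval of 9.77 to 141 (adjusted p = 0.00214, edgeR), and untreated cDC2 had 25.1, 35.1 and 22.4 CPM. Bcar3, an adaptor of integrin signalling, had 34.7, 40.8 and 43.7 CPM with LPS+PGPC against 4.6, 3.23 and 0 CPM with LPS (3.78 ± 0.70, adjusted p = 0.00827). Serpinb6a, an inhibitor of serine proteases, had 99.4, 152 and 138 CPM with LPS+PGPC against 12.8, 22.1 and 24.4 CPM with LPS (2.73 ± 0.44, adjusted p = 0.00237). In these 3 genes the untreated libraries lay above all LPS libraries.

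Ckb, the brain-type creatine kinase gene, had 527, 330 and 300.2 CPM with LPS+PGPC against 100.2, 59.2 and 38.1 CPM with LPS (log2 fold change 2.54 ± 0.45, adjusted p = 0.00623, edgeR). Rnh1, which encodes a ribonuclease inhibitor, had 414, 494 and 453 CPM with LPS+PGPC against 95, 185 and 152 CPM with LPS (1.65 ± 0.37, adjusted p = 0.043), the smallest change among genes that rose. Dgka, a kinase that removes the messenger diacylglycerol, had 88.1, 89.3 and 90.8 CPM with LPS+PGPC against 26.6, 11.8 and 25.4 CPM with LPS (2.08 ± 0.47, adjusted p = 0.043). Its LPS+PGPC libraries were nearly equal, and untreated cDC2 had 13.4, 10.3 and 7.46 CPM. The remaining genes were Cd300lb, an activating receptor of myeloid cells (3.13 ± 0.71), Tnfrsf23, a decoy receptor for TRAIL in mice (2.68 ± 0.60), Acap1, a regulator of Arf GTPases (2.65 ± 0.59), and Plk2, a polo-like kinase gene (2.37 ± 0.47). Kcnk13, a potassium channel gene (2.21 ± 0.50), Hip1, a clathrin adaptor gene (2.07 ± 0.46), Lpxn, an adaptor of focal adhesions (2.05 ± 0.45), and Tnfrsf21, death receptor 6 (1.85 ± 0.40), complete this set. Their adjusted p lay between 0.0148 and 0.0478 (edgeR), and reads of Tnfrsf23 and Serpinb6a may be shared with close relatives.

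Lipid handling and lipid synthesis were covered by lists. Plin2 (chr4:86648386-86670060, - strand) encodes perilipin-2, the coat protein of lipid droplets. It had 922, 979 and 968 CPM in LPS+PGPC libraries, against 108, 183 and 185 CPM in LPS libraries. The 3 LPS+PGPC libraries were close to each other and all far above the LPS libraries, at a log2 fold change of 2.60 ± 0.36 (SE; adjusted p = 0.000686, edgeR). Lpl, lipoprotein lipase, which frees fatty acids from lipoproteins, had 323, 416 and 494 CPM with LPS+PGPC against 64.9, 102 and 69.3 CPM with LPS (2.38 ± 0.43, adjusted p = 0.00685). Untreated cDC2 had 663, 634 and 381 CPM of Plin2 and 852, 798 and 672 CPM of Lpl, so the LPS group was the lowest for both. PGPC alone gave 623 and 582 CPM of Plin2 and 1678 and 1703 CPM of Lpl, and neither differed from untreated cells in the test (adjusted p = 1 and 0.816, edgeR).

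Of the 25 tested genes of LXR and PPAR lipid handling, these 2 rose and 0 fell (0.281% and 0.104% over all genes). Of the 25, 18 had a positive log2 fold change, and the median was 0.51 (0.44 to 0.74 over the alternatives). Pparg, the gene of the fatty acid receptor PPAR gamma, had 14.1, 14 and 15.9 CPM in LPS+PGPC libraries against 0.511, 0.538 and 1.95 CPM in LPS libraries. Its libraries lay wholly apart, and its adjusted p of 0.0556 in edgeR was over the threshold (log2 fold change 4.05 ± 0.95), while DESeq2 called it. The scavenger receptor gene Cd36, which takes up oxidized lipids, had 141, 268 and 232 CPM with LPS+PGPC against 25.6, 61.3 and 71.3 CPM with LPS (2.03 ± 0.51, adjusted p = 0.0826, edgeR), and DESeq2 called it too. Untreated cDC2 had 29.9, 30.4 and 33.6 CPM of Pparg and 365, 315 and 381 CPM of Cd36, again above the LPS libraries. Acsl1, which activates long-chain fatty acids, ran the other way, with 171, 112 and 189 CPM in LPS+PGPC libraries against 518, 346 and 464 CPM in LPS libraries (-1.49 ± 0.35, adjusted p = 0.0556, edgeR). It was called lower by DESeq2, with RLE scaling and after thinning.

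Cholesterol synthesis had the highest median of the process lists that were tested. Of its 24 tested genes 2 rose and 0 fell (0.281% and 0.104% over all genes), and 23 had a positive log2 fold change. At an unadjusted p under 0.05 (edgeR), 17 were higher and 0 lower, against 546 and 458 of all 12463 genes. The list's median was 1.55, between 1.20 and 1.76 over the alternatives. Msmo1, a sterol demethylase gene, had 85.3, 89.6 and 144 CPM in LPS+PGPC libraries against 29.6, 18.8 and 32.2 CPM in LPS libraries (log2 fold change 1.99 ± 0.36, adjusted p = 0.00689, edgeR). Fdps, which makes farnesyl diphosphate, had 46.1, 66.8 and 104 CPM with LPS+PGPC against 11.2, 25.3 and 19.5 CPM with LPS (1.95 ± 0.40, adjusted p = 0.0219). Both lay wholly above the LPS libraries, and untreated cDC2 had 38.8, 35.3 and 33.6 CPM of Msmo1 and 17.9, 19.6 and 11.2 CPM of Fdps.

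Other members of the sterol pathway, picked here after their values were seen, were shifted without passing edgeR's test. Hmgcs1, the HMG-CoA synthase gene, had 466, 232 and 164 CPM in LPS+PGPC libraries against 179, 41.4 and 56.6 CPM in LPS libraries (log2 fold change 1.63 ± 0.46, adjusted p = 0.149). Lss, lanosterol synthase, had 59.2, 63.4 and 45.9 CPM with LPS+PGPC against 21.5, 4.84 and 14.6 CPM with LPS (2.04 ± 0.52, adjusted p = 0.0861). In Hmgcs1, LPS replicate 4 at 179 CPM lay above the lowest LPS+PGPC library. DESeq2 called Hmgcs1 and Lss, beside Msmo1 and Fdps. For fatty acid synthesis 0 of 13 tested genes were called, 4 were higher and 0 lower at an unadjusted p under 0.05 (edgeR; DESeq2 called 0), and the median was 1.05. That median was 0.41 without LPS+PGPC replicate 4, 1.42 without LPS replicate 4 and 0.53 after thinning. Its member with the smallest adjusted p was Acss2, which makes acetyl-CoA, with 29.2, 20.4 and 31.4 CPM with LPS+PGPC against 9.71, 8.07 and 5.86 CPM with LPS (1.76 ± 0.50, adjusted p = 0.154).

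**Figure D3:**
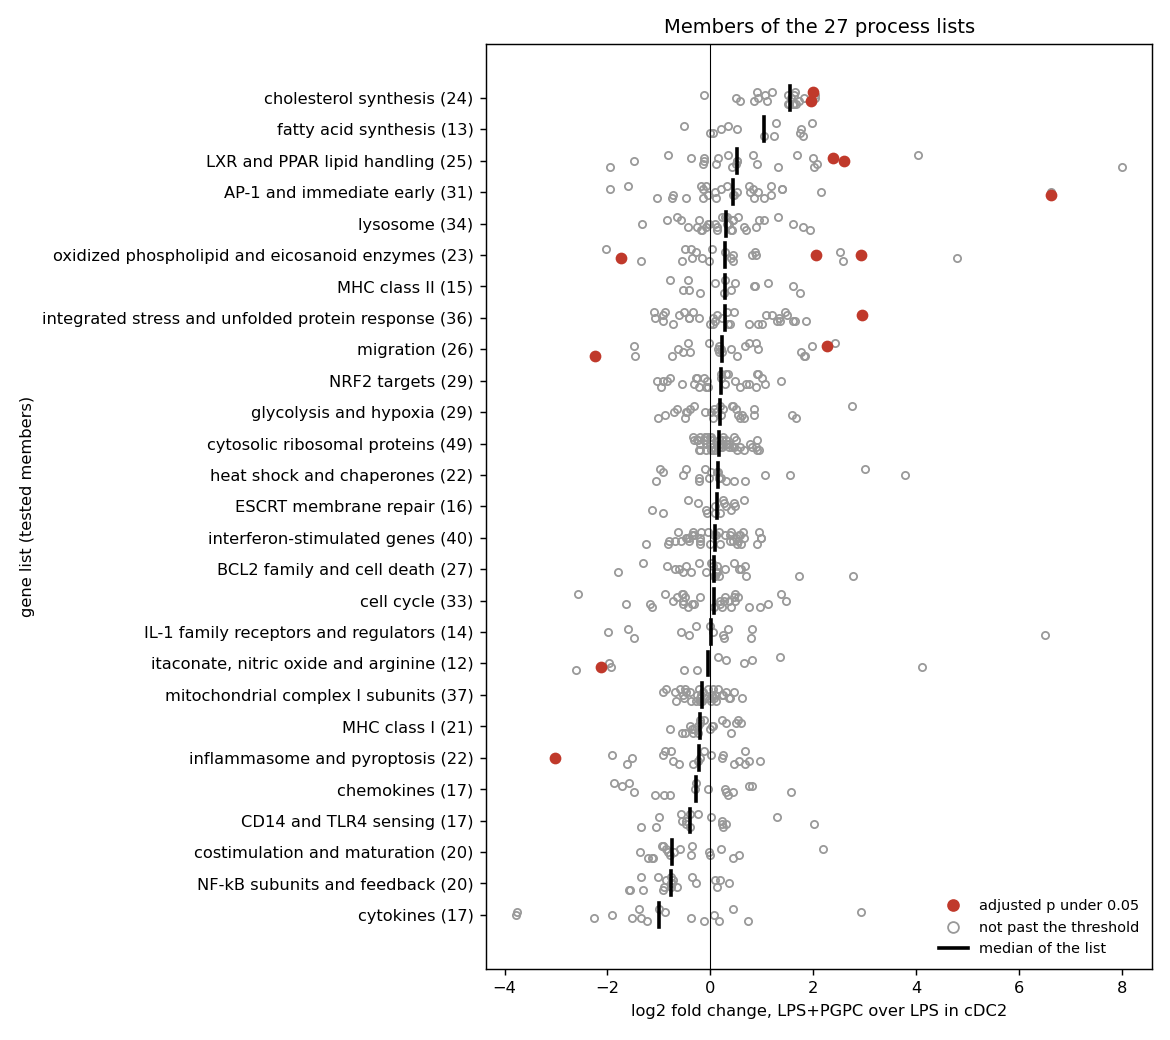
Log2 fold change of LPS+PGPC over LPS in cDC2 for every tested member of the 27 process lists, 1 point per gene, with a line at each list's median and called genes filled. The medians of cholesterol synthesis (1.55) and fatty acid synthesis (1.05) lie furthest above 0, the second of which falls to 0.41 without LPS+PGPC replicate 4, and those of cytokines (-0.99), NF-kB subunits and feedback (-0.76) and costimulation (-0.75) furthest below.

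Among enzymes that act on oxidized phospholipids and arachidonic acid, 2 of 23 tested genes rose and 1 fell (0.281% and 0.104% over all genes). Tbxas1, thromboxane synthase, had 144, 48.8 and 30.9 CPM in LPS+PGPC libraries against 12.8, 13.4 and 1.95 CPM in LPS libraries (log2 fold change 2.92 ± 0.60, adjusted p = 0.0219, edgeR). Alox5ap, which presents arachidonic acid for leukotriene synthesis, had 46.1, 88.7 and 132 CPM with LPS+PGPC against 12.3, 33.9 and 17.6 CPM with LPS (2.06 ± 0.40, adjusted p = 0.0145). Lpcat2, an LPS-inducible enzyme that makes platelet-activating factor, fell, with 19.6, 24.7 and 25.9 CPM in LPS+PGPC libraries against 57.2, 99 and 76.2 CPM in LPS libraries (-1.73 ± 0.36, adjusted p = 0.022). The LPS+PGPC libraries spread widely for Tbxas1 and little for Lpcat2, without overlap with LPS for either. The median of the list was 0.29 and changed sign in 3 alternatives.

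Markers of macrophages were read beside these lipid genes, since several are shared by macrophages. Of 17 tested monocyte or macrophage markers 0 were called by edgeR, and DESeq2 called Ccr2. At an unadjusted p under 0.05 (edgeR), 6 were higher and 0 lower. With LPS+PGPC, 7 lay wholly higher and 0 wholly lower (8.5% and 5.39% over all genes), and the median log2 fold change was 0.75. Their summed level was 3830 to 9136 CPM in LPS+PGPC libraries and 2928 to 7193 CPM in LPS libraries, and no tested marker was at 0 in all 6. Of the 17, 12 had a positive and 5 a negative log2 fold change, and C1qb and Fcgr1 were picked here after their values were seen. The complement gene C1qb had 262, 236 and 243 CPM with LPS+PGPC against 60.3, 174 and 127 CPM with LPS (1.04 ± 0.45, adjusted p = 0.523). Untreated cDC2 had 325, 297 and 299 CPM of C1qb, above all LPS+PGPC libraries. Fcgr1, a receptor for IgG, had 231, 204 and 153 CPM with LPS+PGPC against 46.5, 114 and 69.3 CPM with LPS (1.35 ± 0.53, adjusted p = 0.433). Its level in untreated cDC2 was 13.1, 14.4 and 11.2 CPM. The part of these markers in the lipid results was not tested.

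Stress genes were represented by Trib3, a pseudokinase gene switched on by ATF4 and CHOP. It had 64.8, 43.6 and 29.6 CPM in LPS+PGPC libraries against 8.18, 6.99 and 1.95 CPM in LPS libraries (log2 fold change 2.94 ± 0.62, adjusted p = 0.0265, edgeR), with 4.81, 2.58 and 0 CPM in untreated cells. All LPS+PGPC libraries lay above the LPS, PGPC-alone and untreated libraries, where PGPC alone had 8.2 and 6.88 CPM. Among 36 tested genes of the integrated stress and unfolded protein response, Trib3 alone rose and 0 fell (0.281% and 0.104% over all genes). At an unadjusted p under 0.05 (edgeR), 10 were higher and 3 lower, against 546 and 458 of all 12463 genes. The list's median was 0.28. The amino acid synthesis genes Asns and Psat1, which ATF4 also drives, had an adjusted p of 0.0556 each (edgeR) and were called by DESeq2. Asns had 73.4, 90.8 and 109 CPM with LPS+PGPC against 23.5, 38.2 and 27.3 CPM with LPS, and Psat1 had 48.5, 73.8 and 71 CPM against 9.71, 22.6 and 21.5 CPM with LPS. Hsp90b1, a chaperone of the endoplasmic reticulum, was called lower by DESeq2, with 163, 178 and 204 CPM with LPS+PGPC against 238, 450 and 348 CPM with LPS (-0.93 ± 0.33, adjusted p = 0.348, edgeR). Heat shock genes held 0 edgeR calls among 22, with 2 higher and 1 lower at an unadjusted p under 0.05, and DESeq2 called Hsph1. NRF2 targets held 0 among 29, with 4 higher and 3 lower unadjusted, and DESeq2 called 0. Without the filter on low counts, edgeR called 1 heat shock gene, higher, and 0 NRF2 targets. Hmox1, the NRF2 target that breaks down heme, had 2239, 1169 and 1226 CPM with LPS+PGPC against 746, 990 and 1016 CPM with LPS (0.75 ± 0.41, adjusted p = 0.724, edgeR).

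Among the genes that fell, Nlrp3 (chr11:59541568-59566956, + strand) encodes the sensor that assembles the inflammasome. It had 56.4, 25.3 and 35.3 CPM in LPS+PGPC libraries, against 437, 237 and 281 CPM in LPS libraries. The highest LPS+PGPC library was several times below the lowest LPS library, at a log2 fold change of -3.02 ± 0.55 (SE; adjusted p = 0.00691, edgeR). Untreated cDC2 had 49.4, 50.8 and 26.1 CPM and PGPC alone 26.8 and 46.5 CPM, so the LPS+PGPC values lay near those of the groups without LPS, and the LPS group stood above them all. Of the 22 tested genes of inflammasomes and pyroptosis Nlrp3 fell and 0 rose (0.104% and 0.281% over all genes). At an unadjusted p under 0.05 (edgeR), 3 were lower and 0 higher. Without the filter on low counts, edgeR also called Il1a lower.

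The enzymes that act after the sensor gave other values. Casp1, the protease that cleaves interleukin-1 beta, had 25.8, 40.5 and 37.3 CPM in LPS+PGPC libraries against 13.3, 44.6 and 30.3 CPM in LPS libraries (log2 fold change 0.23 ± 0.57, adjusted p = 0.998, edgeR). Gsdmd, the pore protein that lets it out, had 587, 241 and 210 CPM with LPS+PGPC against 351, 230 and 168 CPM with LPS (0.47 ± 0.47, adjusted p = 0.936). Both overlapped between the groups. The median of the inflammasome list, -0.22, changed sign in 2 alternatives.

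Sod2, the manganese superoxide dismutase of mitochondria and a known NF-kB target, had 199, 271 and 343 CPM in LPS+PGPC libraries against 841, 1403 and 1303 CPM in LPS libraries. The groups were wholly apart, at a log2 fold change of -2.12 ± 0.33 (adjusted p = 0.00214, edgeR), and untreated cDC2 had 104, 145 and 97 CPM. Shisa3, which holds Wnt and FGF receptors back in the endoplasmic reticulum, had 8.31, 2.44 and 4.32 CPM with LPS+PGPC against 123, 89.3 and 121 CPM with LPS (-4.42 ± 0.78, adjusted p = 0.00995). Sp6, a zinc finger factor known from teeth and skin, had 0.297, 0 and 0 CPM in LPS+PGPC libraries, against 8.69, 7.53 and 9.76 CPM in LPS libraries. That is 2 counts against 41, a ratio 61.1 times lower with LPS+PGPC (95% counting interval 15.9 to 521; adjusted p = 0.00214, edgeR). Both genes were at or near 0 in untreated cells too, with 0.535, 0.258 and 0 CPM for Sp6 and 0, 4.12 and 0 CPM for Shisa3.

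Igsf6, an immunoglobulin superfamily receptor gene of myeloid cells, had 70.5, 43.6 and 35 CPM in LPS+PGPC libraries against 411, 230 and 220 CPM in LPS libraries (log2 fold change -2.53 ± 0.44, adjusted p = 0.00474, edgeR). Sla, an adaptor that dampens antigen receptor signals in lymphocytes, had 29.1, 31.1 and 26.8 CPM with LPS+PGPC against 84.8, 141 and 146 CPM with LPS (-2.10 ± 0.43, adjusted p = 0.021). The tetraspanin gene Cd82 had 18.8, 14.6 and 18.9 CPM with LPS+PGPC against 38.3, 94.1 and 59.6 CPM with LPS (-1.87 ± 0.42, adjusted p = 0.0414). Every LPS+PGPC library lay below every LPS library for these 3 genes. The remaining genes that fell were Tbc1d2b, a regulator of Rab GTPases (-2.62 ± 0.58, adjusted p = 0.04), and Lmo4, a LIM-only transcription cofactor (-1.83 ± 0.39, adjusted p = 0.0329). Across Nlrp3, Sod2, Igsf6, Shisa3 and Sla, the untreated libraries lay below every LPS library. Untreated replicate 6 held 243870 counts, where 3 counts stand for 11.2 CPM, so low values in it say little.

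Cytokine transcripts did not pass the test, with 0 of 17 tested genes called (1 higher and 6 lower at an unadjusted p under 0.05; DESeq2 called Osm, higher). Without the filter on low counts, edgeR called Il1a lower (adjusted p = 0.0287) and Osm higher. The median log2 fold change of the list was -0.99, negative in all 14 alternatives, which reuse the same counts. With LPS+PGPC, 7 genes lay wholly lower and 2 wholly higher (5.39% and 8.5% over all genes). Il1b, the gene of the cytokine by which hyperactive cells are known, had 193, 287 and 282 CPM in LPS+PGPC libraries against 272, 672 and 451 CPM in LPS libraries (-0.87 ± 0.64, adjusted p = 0.857, edgeR). Il1a, its sister gene, had 70.8, 75.6 and 49.4 CPM with LPS+PGPC against 272, 240 and 226 CPM with LPS (-1.91 ± 0.76, adjusted p = 0.454). Il1b overlapped between the groups and Il1a did not, and both were near 0 in untreated cDC2, at 2.14, 4.9 and 3.73 CPM for Il1b and 0, 0.773 and 0 CPM for Il1a.

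Il6 had 11, 25 and 24.3 CPM in LPS+PGPC libraries against 29.6, 76.4 and 50.8 CPM in LPS libraries (log2 fold change -1.38 ± 0.62, adjusted p = 0.571, edgeR). Tnf had 92.4, 51.8 and 51 CPM with LPS+PGPC against 113, 209 and 135 CPM with LPS (-1.23 ± 0.46, adjusted p = 0.405). Il10, the anti-inflammatory cytokine gene, had 1.04, 0.305 and 0.455 CPM with LPS+PGPC against 8.18, 7.53 and 10.7 CPM with LPS (-3.77 ± 1.35, adjusted p = 0.354). In all of these the LPS+PGPC libraries lay below the LPS libraries, which was so with LPS+PGPC lower for 5.39% of all genes. Il12b, a subunit of interleukin-12, overlapped, with 12.8, 15.9 and 10.5 CPM against 9.71, 13.4 and 4.88 CPM with LPS (0.44 ± 0.69, adjusted p = 0.98). Osm, which encodes oncostatin M, ran the other way, with 47, 34.1 and 27.8 CPM with LPS+PGPC against 10.2, 3.23 and 0 CPM with LPS (2.93 ± 0.85, adjusted p = 0.176).

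**Figure D4:**
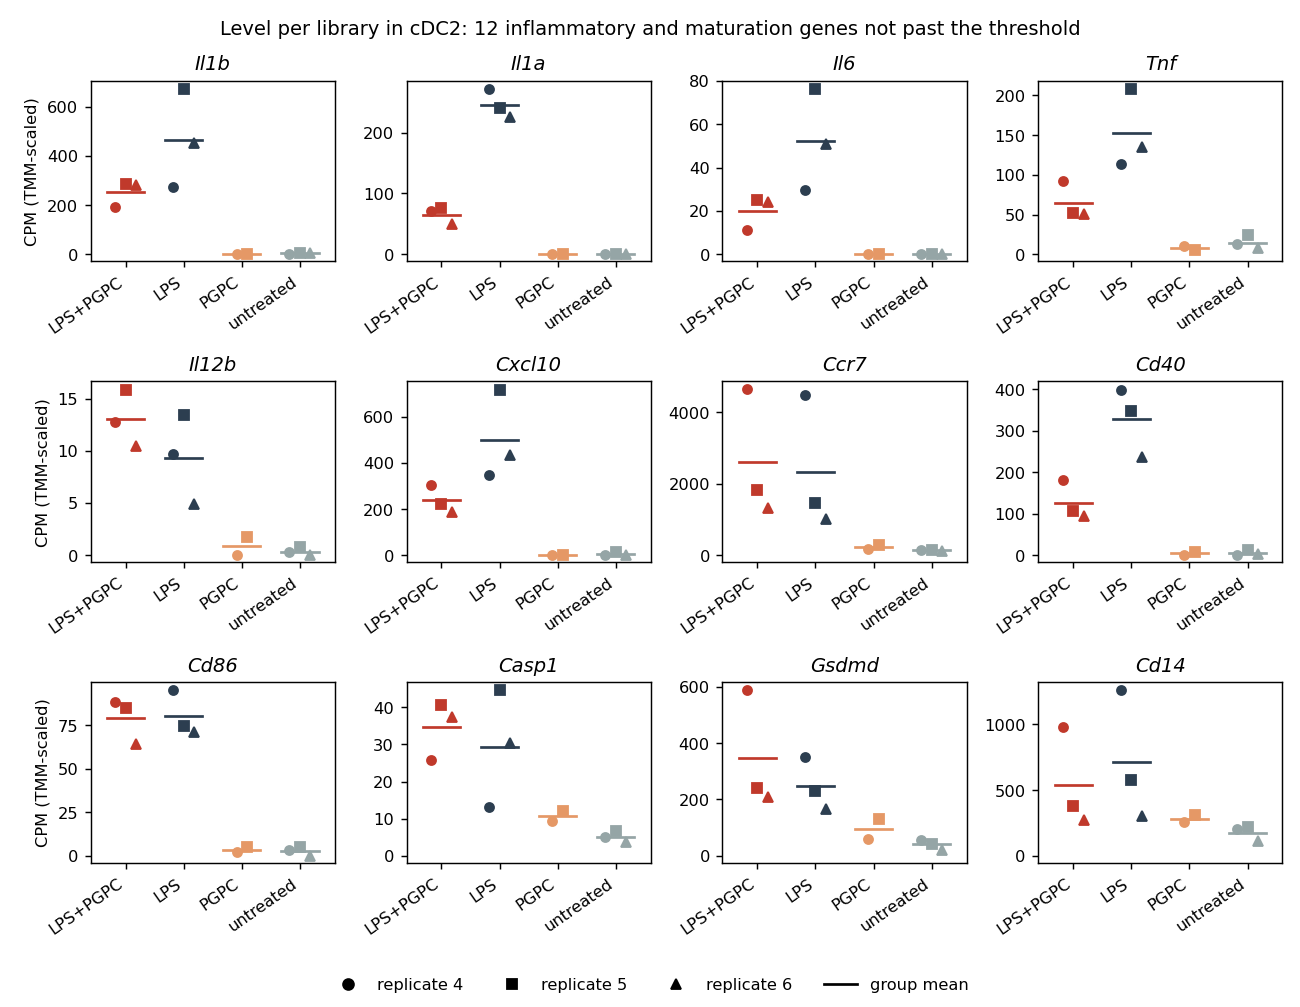
Level of 12 genes that did not pass the test in each cDC2 library (CPM, linear axis per gene), with 1 point per library and a bar at the group mean, from LPS+PGPC and LPS to PGPC alone and untreated. The LPS+PGPC and LPS points of Il1b, Il12b, Ccr7, Cd86, Casp1, Gsdmd and Cd14 overlap, while those of Il1a, Il6, Tnf, Cxcl10 and Cd40 do not.

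NF-kB subunits and feedback genes had a median of -0.76, negative in all 14 alternatives, which reuse the same counts. At an unadjusted p under 0.05 (edgeR), 0 were higher and 6 lower, against 546 and 458 of all 12463 genes. In this list 0 of 20 tested genes were called by edgeR or DESeq2. Its member with the smallest adjusted p was Nfkbiz, an inducible nuclear cofactor, with 48.4, 90.8 and 91.4 CPM in LPS+PGPC libraries against 171, 263 and 251 CPM in LPS libraries (log2 fold change -1.57 ± 0.55, adjusted p = 0.343, edgeR). Costimulation and maturation had a median of -0.75, also negative in all 14 alternatives, with 0 of 20 called by either tool and 0 higher and 3 lower unadjusted. Cd40, which receives help from T cells, had 182, 105 and 93.9 CPM with LPS+PGPC against 400, 347 and 236 CPM with LPS (-1.37 ± 0.51, adjusted p = 0.401). Cd86, a costimulatory ligand, had 88.4, 84.7 and 64.1 CPM with LPS+PGPC against 95, 74.8 and 71.3 CPM with LPS (-0.02 ± 0.45, adjusted p = 1), and its sign depended on the alternative. Cd40 lay lower in every LPS+PGPC library, while Cd86 overlapped, and both stood above untreated cDC2, which had 1.34, 11.3 and 3.73 CPM of Cd40 and 3.21, 5.41 and 0 CPM of Cd86.

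Chemokines (0 of 17 called; 0 higher and 2 lower unadjusted), interferon-stimulated genes (0 of 40; 0 and 1), MHC class I (0 of 21; 0 and 0) and MHC class II (0 of 15; 3 and 0) held no call in edgeR with the filter on low counts or in DESeq2, with medians of -0.27, 0.09, -0.19 and 0.29. Without the filter, edgeR called Ccl4 lower among chemokines and Ctss higher among MHC class II genes. The medians of the first 3 changed sign in some alternatives and that of MHC class II did not. Cxcl10, an interferon-induced chemokine, had 305, 220 and 188 CPM in LPS+PGPC libraries against 349, 718 and 435 CPM in LPS libraries (log2 fold change -1.08 ± 0.64, adjusted p = 0.767, edgeR). Cd14, the coreceptor that carries LPS to TLR4 and that is also known to bind oxidized phospholipids, had 975, 377 and 270 CPM with LPS+PGPC against 1260, 578 and 306 CPM with LPS (-0.40 ± 0.55, adjusted p = 0.968). Tlr4 had 72, 56.7 and 39.6 CPM with LPS+PGPC against 29.1, 9.14 and 31.2 CPM with LPS (1.29 ± 0.57, adjusted p = 0.539). Cd14 overlapped between the groups, and Tlr4 lay higher in every LPS+PGPC library. Cathepsins of the lysosome list (0 of 34 called; 5 higher and 2 lower unadjusted; median 0.31) ran both ways: Ctsl had 321, 315 and 258 CPM with LPS+PGPC against 80.7, 90.4 and 84 CPM with LPS, and Ctsc had 359, 342 and 315 CPM against 924, 787 and 846 CPM with LPS. Both had an adjusted p of 0.0556 in edgeR and were called by DESeq2, with log2 fold changes of 1.81 ± 0.42 and -1.33 ± 0.31 in edgeR.

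Markers of mast cells or basophils summed to 63.1 to 136 CPM in LPS+PGPC libraries and 217 to 258 CPM in LPS libraries, which was mostly the sum of Hdc and Kit. Hdc, the histamine synthesis gene, averaged 76.9 ± 39.5 CPM with LPS+PGPC and 203 ± 24.7 CPM with LPS (SD, n = 3 each; log2 fold change -1.40 ± 0.86, adjusted p = 0.785, edgeR). None of the 8 tested was called by edgeR, with 0 higher and 1 lower at an unadjusted p under 0.05, and DESeq2 called Kit. Of the 8, 4 had a positive and 4 a negative log2 fold change. Kit, the stem cell factor receptor gene, which progenitors also express, had 11.1, 8.84 and 11.1 CPM with LPS+PGPC against 40.9, 38.7 and 35.2 CPM with LPS (log2 fold change -1.88 ± 0.45, adjusted p = 0.0616, edgeR). Of the 13 listed markers, 7 were at 0 in all 6 libraries: Cpa3, Mcpt8, Mcpt4, Ms4a2, Cma1, Tpsb2 and Il4. The others, Fcer1a, Gata2, Prss34, Cd200r3, Hdc and Kit, held counts in some of them. Some of the 8 tested markers were thus at 0 in all 6 libraries and could not have been called. Summed markers of B cells (31.6 to 107 CPM with LPS+PGPC, 42.5 to 46.9 CPM with LPS) and of plasmacytoid dendritic cells (411 to 606 and 300 to 667 CPM) overlapped, with 0 genes called in either list by edgeR or DESeq2.

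The same addition was made in cDC1, in libraries that share none with cDC2. There 242 of the 12463 genes were called (1.94%), 174 higher and 68 lower. Both cell types shared 23 calls, which is 47.9% of the 48 in cDC2 and 9.50% of the 242 in cDC1, and all 23 had the same direction, 19 higher and 4 lower. Of the 48, 40 had the same sign in cDC1 whether or not called there. Across all tested genes, which share libraries and scaling and are not independent, Pearson's r of the fold changes was 0.21.

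Genes called in both included Klf2, Tsc22d3, Emp1, Rhob, Plin2, Lpl, Cd9, C5ar1, Clec7a, Plaur, Alox5ap and Fdps on the higher side, and Sp6, Shisa3, Igsf6 and Itgal on the lower. In cDC1, Klf2 averaged 19 ± 8.82 CPM with LPS+PGPC and 0.502 ± 0.453 CPM with LPS (SD, n = 3 each). Plin2 averaged 185 ± 39.3 CPM with LPS+PGPC and 29.9 ± 7.16 CPM with LPS in cDC1, a log2 fold change of 2.62 ± 0.36 beside 2.60 ± 0.36 in cDC2 (adjusted p = 0.000672 and 0.000686, edgeR). Sp6 averaged 2.96 ± 2.02 CPM with LPS+PGPC and 114 ± 21 CPM with LPS in cDC1 (log2 fold change -5.27 ± 0.67, adjusted p = 0.000469). Nlrp3 and Sod2 were not called in cDC1, where their log2 fold changes were -1.27 ± 0.52 and -0.57 ± 0.32 (adjusted p = 0.211 and 0.385). Neither of these was called in the test of the difference between the cell types.

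**Figure D5:**
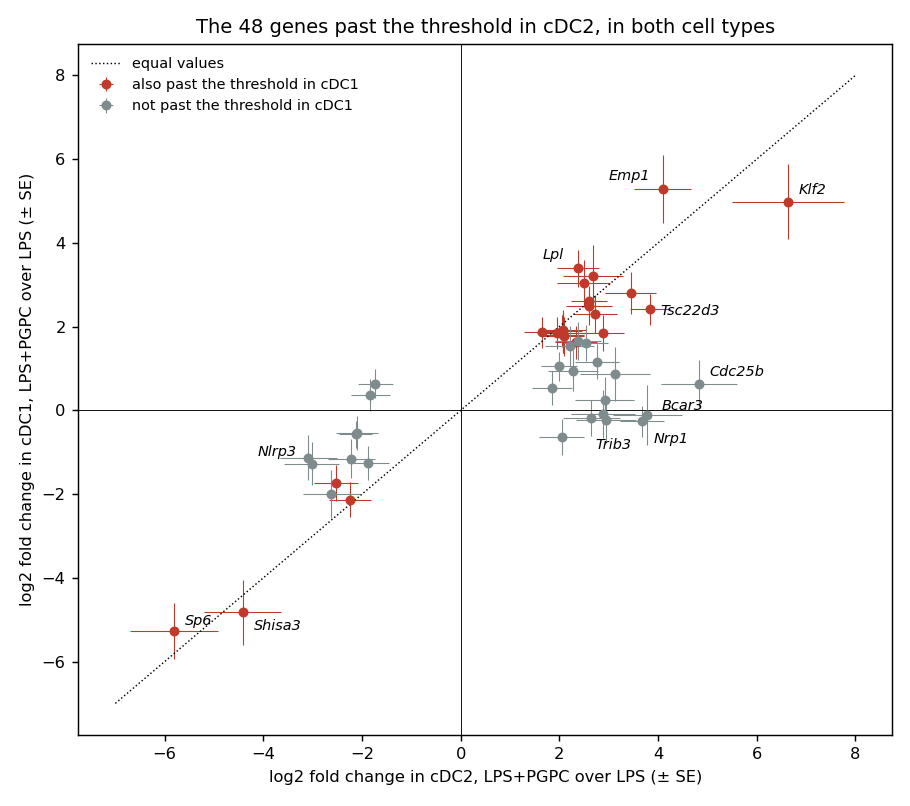
Log2 fold change of LPS+PGPC over LPS for the 48 genes called in cDC2, with cDC2 on the horizontal axis and cDC1 on the vertical axis, bars of 1 SE and colours for whether the gene was also called in cDC1. Most points lie in the quadrants of equal sign (40 of 48), and Nrp1 stands at 3.68 in cDC2 and -0.26 in cDC1.

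The difference of the 2 effects, cDC2 minus cDC1, passed the test for 1 gene, Nrp1 (0.00802% of genes tested; DESeq2 called 59). Its difference of log2 fold changes was 3.94 ± 0.58 (adjusted p = 0.00495, edgeR). In cDC1, Nrp1 averaged 35.7 ± 7.26 CPM with LPS+PGPC and 42.5 ± 11.3 CPM with LPS (SD, n = 3 each), a log2 fold change of -0.26 ± 0.37 (adjusted p = 0.786). All 3 LPS+PGPC libraries exceeded all LPS libraries in cDC2. The call was made in 18 of 20 alternatives, and the difference lay between 3.62 and 4.24 in all 20. The call was lost in the fits to the groups compared alone and to all 36 libraries, at an adjusted p of up to 0.9999 (edgeR). All 20 reuse the same counts. Trib3, Asns, Psat1 and Lpcat2, called or near the threshold in cDC2, had log2 fold changes of -0.24, -0.25, -0.45 and 0.63 in cDC1, and their differences did not pass the test.

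PGPC without LPS was measured in cDC2 by 2 libraries against 3 untreated ones, and 2 genes were called (0.016%; 724 at an unadjusted p under 0.05; DESeq2 called 18). A fit to these 5 libraries alone called 212 genes, and the fit without the filter on low counts called 33. The count thus depends strongly on the fit. Counts on the ribosomal RNA locus made up 52.0% and 60.9% in the PGPC libraries, against 28.6%, 31.5% and 37.3% in the untreated ones. PGPC replicate 5 held 969959 counts. Fam43a, whose function is little known, had 38.8 and 143 CPM with PGPC against 2.41, 5.67 and 7.46 CPM without treatment (log2 fold change 4.32 ± 0.73, adjusted p = 0.0215, edgeR). With LPS present it had 5.79, 3.66 and 3.64 CPM with PGPC added and 24, 4.84 and 6.83 CPM with LPS alone (-1.46 ± 0.61, adjusted p = 0.486). Rab11b-ps2, a pseudogene whose reads are uncertain between near-identical copies, had no count with PGPC and 36.9, 38.1 and 33.6 CPM in untreated cells. Whether the effect of PGPC differs with and without LPS was not tested.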

How the data were processed

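Bulk RNA was measured with Smart-Seq2, which keeps no strand, so overlapping and antisense genes cannot be told apart, and sequenced as paired ends, per the labels' protocols. Per the submitters' processing notes, the authors used bcl2fastq 2.2, RSEM and GRCm38, and the deposited table holds expected counts for each gene symbol. No aligner or annotation release is stated there. The table held 53299 genes, and 21% of nonzero values were not whole, so counts were rounded. Groups came from the labels. The fit took 23 libraries, without alum and without cDC2 PGPC replicate 6 (3805 counts), as 8 group means in edgeR 4.0.16 (limma 3.58.1, R 4.3.3) with TMM scaling and filterByExpr (minimum count 10, minimum total 15), which left 12463 genes. The standard error of a log2 fold change is its size over the square root of F. Counting intervals cover counting error only. DESeq2 1.42.0 was an alternative, with RLE scaling, no filter, other sets of libraries, a replicate block and libraries left out; thinning was chosen after seeing the data. The test was tried on simulated counts.

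Replicate numbers were not treated as pairs: the deviations of same-numbered libraries correlated at 0.52, 0.091 and 0.20. The members, lists, tests and named-gene rule were chosen with earlier results of these data known. The rule took called genes without overlap whose higher group averaged 5 CPM or more, up to 12 each way, filled to 10 where fewer were called, then up to 4 called members of each list, or the member with the smallest adjusted p, and a panel of cytokine, maturation and marker genes. The other called genes, and 16 genes near the threshold or in a pathway described (Pparg, Asns, Psat1, Lss, Hmgcs1, Idi1, Klf6, Adam8, Itgb7, C1qc, C1qb, Fcgr1, Ctsl, Syk, Acsl1 and Hsp90b1), were added after their values were seen, and not all are printed. Some genes are not reported here. Promoter sequences are from RefSeq (GRCm38.p6), and gene positions from GENCODE M21 on GRCm38.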

Additional observations from a re-analysis of the deposited data

Results flagged for a closer look

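Nrp1, the gene of the semaphorin and VEGF coreceptor neuropilin-1, was taken up here because the effect of adding PGPC to LPS differed between the cell types in the test of the difference itself. The difference of log2 fold changes, cDC2 minus cDC1, was 3.94 ± 0.58 (SE; adjusted p = 0.00495, edgeR). Nrp1 was higher with LPS+PGPC in 3 of 3 cDC2 libraries, at 74.2, 54.3 and 32.8 CPM, against 4.6, 5.38 and 1.95 CPM with LPS. In cDC1 it averaged 35.7 ± 7.26 CPM with LPS+PGPC and 42.5 ± 11.3 CPM with LPS (SD, n = 3 each).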

How the results depend on the processing

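All 48 genes called with PGPC added to LPS in cDC2 kept their direction in all 14 alternatives, which adds little, since their libraries lay wholly apart. Only 1 of the 48 was called in all of the alternatives. The counts of calls for LPS+PGPC over LPS in cDC2, for the difference between cell types and for PGPC alone in cDC2 were 48, 1 and 2. They became 156, 97 and 33 without the filter on low counts, 193, 59 and 18 with DESeq2, 13, 0 and 212 with the groups compared alone, and 2, 0 and 0 with all 36 libraries. For the 0 calls of the difference, 915 genes (groups compared alone) and 363 (all 36) had an unadjusted p under 0.05, and for PGPC alone 316 did with all 36. Leaving out 1 library gave 19 to 83 calls for the first, 1 to 46 for the second (46 without cDC2 LPS replicate 4, 5 without cDC1 LPS+PGPC replicate 2, 2 without cDC2 LPS+PGPC replicate 6 or without cDC1 LPS replicate 3) and 1 to 3 for the third (3 without PGPC replicate 4, 1 without any of the others). The replicate numbers are not known to pair the samples. With the replicate number as a block, the counts were 47 (41 of them among the 48), 1 and 1, and every LPS library correlated best with the LPS+PGPC library of its own number, except replicate 5. RLE scaling gave 52, 1 and 2, leaving out the ribosomal RNA locus and mitochondrial genes 50, 1 and 2, and thinning 41 and 1. The cause of these moves was not tested, beyond the number of genes and libraries that each setting holds.

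Some log2 fold changes of genes that were not called changed sign. Cd86 was 0.049 without the filter, 0.0056 without the ribosomal RNA locus and mitochondrial genes and 0.0014 after thinning. Xcr1 was -0.0546 with RLE scaling and -1.11 after thinning, and Clec9a -0.67 with DESeq2 and 0 after thinning. Values without 1 library ran from -1.09 to 0.61 for Xcr1, -0.11 to 0.12 for Cd86, 0.00 to 2.79 for Clec9a, -0.12 to 0.69 for Casp1, -1.14 to 0.29 for Cd14, -0.21 to 0.68 for Irf4, -1.41 to 0.0037 for Psme2, -1.33 to 0.18 for Ndufa5, -0.56 to 1.07 for Ccr7 and -0.15 to 0.80 for Gsdmd. The depth of the LPS libraries, 980502 counts in the shallowest, limits what can be said of genes near 3 counts.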

Other observations

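Gene lists not described above held few calls when PGPC was added to LPS in cDC2. In the list of itaconate, nitric oxide and arginine metabolism Sod2 fell (0.104% over all genes) and 11 of 12 tested genes did not pass the test. The list's median log2 fold change of -0.05 changed sign in 3 alternatives. Glycolysis and hypoxia held 0 calls among 29 tested genes (3 higher and 2 lower at an unadjusted p under 0.05, edgeR; DESeq2 called Pfkp higher and P4ha1 lower), with a median of 0.18. Pfkp, the platelet-type phosphofructokinase gene, had 198, 86 and 86 CPM in LPS+PGPC libraries, against 74.1, 25.8 and 21.5 CPM in LPS libraries (1.59 ± 0.45, adjusted p = 0.148, edgeR). Cell cycle genes held 0 calls among 33 (2 higher and 3 lower unadjusted; DESeq2 called Mki67 and Ccnd1), with a median of 0.07. Mki67, a marker of dividing cells, had 4.3, 3.96 and 0.91 CPM with LPS+PGPC against 28.1, 10.2 and 16.6 CPM with LPS (-2.57 ± 0.61, adjusted p = 0.0557, edgeR).

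The medians of lists of basic cell machinery moved with single libraries. The 37 tested subunits of mitochondrial complex I had a median of -0.17 and 0 genes under an unadjusted p of 0.05, and the 49 cytosolic ribosomal protein genes a median of 0.17 with 3 higher and 0 lower unadjusted, of which DESeq2 called Rpl4. Rpl4 had 435, 398 and 311 CPM with LPS+PGPC against 202, 242 and 165 CPM with LPS (0.91 ± 0.31, adjusted p = 0.297, edgeR). The complex I median ran from -0.51 without LPS+PGPC replicate 6 to 0.25 without LPS replicate 5, and the ribosomal protein median from -0.29 to 0.60 without the same libraries. BCL2 family and cell death genes (27 tested, median 0.08; DESeq2 called 1) and ESCRT membrane repair genes (16 tested, median 0.14; DESeq2 called 0) held 0 calls in edgeR, with 2 higher and 2 lower and with 0 higher and 1 lower unadjusted. Bbc3, which encodes the death inducer PUMA, had 23.1, 7.01 and 11.6 CPM with LPS+PGPC against 3.58, 0.538 and 1.95 CPM with LPS (2.77 ± 0.77, adjusted p = 0.142, edgeR). Receptors and regulators of the IL-1 family (14 tested, median 0.02; 1 higher and 1 lower unadjusted) held 0 calls in either tool. CD14 and TLR4 sensing (17 tested, median -0.40; 2 higher and 2 lower unadjusted) held 0 in edgeR, while DESeq2 called Cd36 and Syk. Summed markers of neutrophils or their precursors were 40.9 to 104 CPM with LPS+PGPC and 94.7 to 104 CPM with LPS, of T or NK cells 2.74 to 13.9 and 1.08 to 6.83 CPM, and of erythroid cells 3.86 to 6.37 and 3.58 to 16.6 CPM.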
